A study of Rattus norvegicus with 24 samples.

Results

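The 32 genes described here are microglia and myeloid cell genes, chosen by name from a list and each matched to 1 gene identifier, out of 32883 genes in the files. This list and the others below were chosen with earlier results of these data known, so counts within them are no independent check. The 32 genes were followed through primary cultures from the striatum of neonatal rats, treated on day 7 in culture with a D1 dopamine receptor agonist (SKF) and a bromodomain inhibitor (JQ1 or iBD2). Every culture received a pair of agents: SKF with DMSO (called SKF), JQ1 with DMSO (JQ1), SKF with JQ1 (SKF+JQ1), the same pairs with iBD2, or DMSO alone as vehicle. Experiment 1 had SKF+JQ1, JQ1, SKF and DMSO cultures for 60 min, experiment 2 had SKF+iBD2, iBD2, SKF and DMSO cultures for 60 min, and experiment 3 had SKF+JQ1, JQ1, SKF and DMSO cultures for 24 h. Each of the 12 groups had 2 libraries, except SKF+iBD2, of which 1 library was analysed here. The labels give no doses and do not state separate cultures for the libraries of a group, so p-values reflect how far these libraries differ, and that spread may be technical only. The labels name the source as striatal neurons and give no step that removes or adds glia.

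Microglia are the resident macrophages of the brain. They depend on signals from the colony stimulating factor receptor Csf1r, whose ligands Csf1 and Il34 come from neighbouring cells, and their identity is set by a few transcription factors, chief among them PU.1, the product of Spi1, with its partner Irf8. They clear debris and synapses with complement, Fc and lipid receptors that signal through small adaptor proteins, and they digest what they take up in lysosomes. BET proteins bind acetylated histones through their bromodomains and are recruited to active enhancers and promoters. JQ1 blocks both bromodomains of the BET proteins. iBD2 is given here only by its name.

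PU.1 is known to bind a purine-rich core, the PU box, in promoters of myeloid genes. The 250 bases before the start of each gene were searched for GAGGAA on both strands (TTCCTC on the printed strand marks a match on the other), in RefSeq sequence of the rat build GRCr8. Of the 32 genes 21 had an entry, and 13 of these 21 (61.9%) held at least 1 match, against 23.3% of all 33469 promoters in the table. A second motif, TATAAA, was in 5 of the 21 (23.8%), against 12.9% of all promoters, and its letters cannot overlap those of the PU box. A match is a description of letters, not a site of binding. Shown 5′ to 3′ are the promoters of a growth factor receptor, an integrin chain, an Fc receptor and a signalling protein with matches, and that of Coro1a, which has none and which fell least of the 32 genes with JQ1. Capitals mark the PU box core. They lie at chr18:56834129-56834378, plus strand, for Csf1r, at chr1:192089342-192089591, plus strand, for Itgam, at chr13:85782386-85782635, plus strand, for Fcgr3a, at chr9:2248705-2248954, plus strand, for Vav1, and at chr1:190731104-190731353, minus strand, for Coro1a.
Csf1r: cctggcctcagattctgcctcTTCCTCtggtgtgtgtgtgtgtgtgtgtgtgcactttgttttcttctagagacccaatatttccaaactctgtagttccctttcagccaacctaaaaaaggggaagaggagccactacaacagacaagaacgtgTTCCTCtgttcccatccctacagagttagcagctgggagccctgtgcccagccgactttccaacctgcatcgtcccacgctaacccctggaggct
Itgam: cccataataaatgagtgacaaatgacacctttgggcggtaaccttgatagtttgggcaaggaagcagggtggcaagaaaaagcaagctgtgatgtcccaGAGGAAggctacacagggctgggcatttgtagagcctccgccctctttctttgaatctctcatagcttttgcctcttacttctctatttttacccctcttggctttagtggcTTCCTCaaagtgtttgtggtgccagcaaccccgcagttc
Fcgr3a: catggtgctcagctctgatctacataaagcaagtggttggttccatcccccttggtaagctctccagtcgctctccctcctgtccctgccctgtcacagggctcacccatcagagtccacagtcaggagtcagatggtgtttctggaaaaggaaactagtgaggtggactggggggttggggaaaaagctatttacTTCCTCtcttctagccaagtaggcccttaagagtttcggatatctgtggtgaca
Vav1: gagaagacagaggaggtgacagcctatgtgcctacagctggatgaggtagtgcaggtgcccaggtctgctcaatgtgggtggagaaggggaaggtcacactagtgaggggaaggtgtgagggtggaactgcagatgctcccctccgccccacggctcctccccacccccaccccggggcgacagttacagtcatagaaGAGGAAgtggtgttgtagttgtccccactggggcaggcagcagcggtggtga
Coro1a: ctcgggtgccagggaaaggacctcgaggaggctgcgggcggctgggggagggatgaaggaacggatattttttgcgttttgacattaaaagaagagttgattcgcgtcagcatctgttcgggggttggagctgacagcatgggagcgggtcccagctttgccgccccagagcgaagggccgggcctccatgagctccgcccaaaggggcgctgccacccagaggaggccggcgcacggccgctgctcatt

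Csf1r and Itgam held 2 matches each, beginning 229 and 95 bases before the start in Csf1r and 151 and 39 bases before it in Itgam. Fcgr3a and Vav1 held 1 each, 54 and 52 bases before the start. C1qa, Cx3cr1, Pld4, Ccl6, Ltc4s, Irf8, Coro1a and Inpp5d had no match in this window. Among these 8 were Ltc4s, listed at 0 after 24 h of JQ1, and Coro1a, which kept the most.

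Expression is given as FPKM, a count of fragments scaled by transcript length and by all aligned fragments of the library, summed over the transcripts of a gene, which allows levels to be set side by side between genes. In the 24 h DMSO cultures the 32 genes together came to 222 and 187 FPKM. The leading genes were Fcer1g, Cd68, C1qa, C1qc, C1qb and Fcrl2, with means of 26.2, 22.5, 20.9, 18.4, 17.1 and 16.7 FPKM, and the lowest were Vav1, Ptprc and Tmem119, with 0.577, 0.537 and 0.456 FPKM. All 32 had signal in every DMSO library of the 3 experiments. Genes of lymphocytes and granulocytes, 14 in a separate list, summed to at most 0.464 FPKM in any library, and none reached 0.5 FPKM in 2 libraries. Defining genes of microglia were thus present in cultures labelled as neurons, and genes of lymphocytes and granulocytes were near 0.

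All 32 genes fell after 24 h of JQ1, where 31.9% of all genes tested were called lower, and 31 of them fell when JQ1 was given with SKF, where 31.2% were. SKF alone lowered 24 of the 32, where 0.879% of all genes were called lower (10 of the 32 without SKF replicate 6, 11 without DMSO replicate 5), and 21 of the 32 stood at 40 to 60% of the DMSO level. After 60 min no comparison of JQ1, SKF or iBD2 changed any of the 32 past the threshold. The summed FPKM at 24 h was 13.1 and 11.1 in SKF+JQ1, 36.1 and 28.9 in JQ1 and 114 and 90.05 in SKF cultures, against 222 and 187 in DMSO cultures. The 4 groups did not overlap, and stood in that order. RNA from a mixed culture cannot tell fewer microglia from less of these RNAs per cell.

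The complement genes C1qa, C1qb and C1qc code for the 3 chains of C1q, which starts the classical complement cascade and tags synapses for removal. They lie side by side on the minus strand of chromosome 5 of the build of the files, Rnor_6.0: C1qb at chr5:155246447-155252003, C1qc at chr5:155255005-155258392 and C1qa at chr5:155261250-155264143. C1qa had an FPKM of 1.005 and 0.306 in SKF+JQ1, 3.94 and 2.80 in JQ1 and 11.6 and 8.44 in SKF cultures, against 23.03 and 18.7 in DMSO cultures. C1qb had an FPKM of 0.458 and 0.415 in SKF+JQ1, 4.22 and 2.93 in JQ1 and 9.74 and 7.18 in SKF cultures, against 19.99 and 14.1 in DMSO cultures. C1qc had an FPKM of 0.297 and 0.0827 in SKF+JQ1, 3.32 and 2.62 in JQ1 and 10.7 and 7.36 in SKF cultures, against 20.5 and 16.2 in DMSO cultures. In all 3 genes every JQ1 library was under every DMSO library, every SKF library lay between them, and the SKF+JQ1 libraries were the lowest of all. JQ1 left 16.1%, 20.9% and 16.2% of the DMSO level of C1qa, C1qb and C1qc, and JQ1 on top of SKF left 6.53%, 5.16% and 2.10% of the SKF level.

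The 5 Fc receptor and adaptor genes kept 1.86 to 14.9% of the DMSO level with JQ1, less than the C1q genes. Fcer1g and Tyrobp are the small adaptors with activating motifs through which many myeloid receptors signal. Fcer1g had an FPKM of 0.498 and 0.362 in SKF+JQ1, 3.10 and 2.69 in JQ1 and 13.4 and 10.9 in SKF cultures, against 27.2 and 25.2 in DMSO cultures. Tyrobp had an FPKM of 0.488 and 0.348 in SKF+JQ1, 1.88 and 1.59 in JQ1 and 6.62 and 4.88 in SKF cultures, against 12.4 and 10.9 in DMSO cultures. Trem2, a receptor for lipids and debris, needs Tyrobp to signal. Trem2 had an FPKM of 0 and 0.0400 in SKF+JQ1, 0 and 0.0981 in JQ1 and 1.27 and 0.760 in SKF cultures, against 3.04 and 2.14 in DMSO cultures. In 1 JQ1 and 1 SKF+JQ1 library Trem2 was listed at 0. Fcgr3a, a low-affinity receptor for immunoglobulin G (chr13:89385859-89396051, plus strand), was the member of this group that SKF alone lowered most. Fcgr3a had an FPKM of 0.0250 and 0.0171 in SKF+JQ1, 0.0825 and 0 in JQ1 and 0.256 and 0.251 in SKF cultures, against 2.47 and 1.97 in DMSO cultures. Both SKF libraries were close to each other, 11.4% of the DMSO mean. Fcrl2 had an FPKM of 0.427 and 0.0800 in SKF+JQ1, 1.34 and 0.985 in JQ1 and 8.39 and 6.42 in SKF cultures, against 17.8 and 15.6 in DMSO cultures. Fcrl2, an Fc receptor-like gene, thus kept 6.97% of its DMSO level with JQ1 and 44.4% with SKF. Fcgr3a has a close relative in the same cluster, Fcgr2b, overlapping it on the opposite strand at 0.0794 to 0.742 FPKM, and reads of near-identical Fc receptor genes may be shared, so its level is uncertain.

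Among the surface receptors, Csf1r receives the survival signal and Cx3cr1 is the receptor for neuronal fractalkine. Csf1r had an FPKM of 0.0851 and 0.0161 in SKF+JQ1, 1.02 and 0.585 in JQ1 and 2.48 and 2.15 in SKF cultures, against 4.98 and 4.02 in DMSO cultures. Cx3cr1 had an FPKM of 0 and 0.0341 in SKF+JQ1, 0.0344 and 0.0897 in JQ1 and 0.868 and 0.709 in SKF cultures, against 3.63 and 2.96 in DMSO cultures. Csf1r kept 17.9% of the DMSO level with JQ1 and Cx3cr1 1.88%. SKF left 51.5% of Csf1r and 23.9% of Cx3cr1. P2ry12, a receptor for ADP, and Tmem119, a membrane protein, are widely used to tell microglia from other macrophages. P2ry12 had an FPKM of 0.0158 and 0 in SKF+JQ1, 0.0491 and 0.0899 in JQ1 and 1.11 and 0.596 in SKF cultures, against 1.67 and 1.57 in DMSO cultures. Tmem119 had an FPKM of 0.0206 and 0.0317 in SKF+JQ1, 0.0269 and 0.0149 in JQ1 and 0.302 and 0.231 in SKF cultures, against 0.563 and 0.349 in DMSO cultures. P2ry12 and Tmem119 stayed under 5% of the DMSO level with JQ1 and at 52.6% and 58.4% of it with SKF. P2ry12 lies within Med12l, on the opposite strand and at 13.7 to 20.6 FPKM, and Evi2b lies within Nf1, likewise on the opposite strand, at 23.4 to 31.03 FPKM. Use of strand in the counting was not given in the sources used here.

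The other receptor and membrane genes followed. Clec4a1 had an FPKM of 0.0479 and 0 in SKF+JQ1, 0 and 0.0661 in JQ1 and 1.24 and 0.936 in SKF cultures, against 2.86 and 3.37 in DMSO cultures. Ly86 had an FPKM of 0 in both SKF+JQ1 libraries, 0 in both JQ1 libraries and 0.616 and 0.169 in SKF cultures, against 0.864 and 0.762 in DMSO cultures. Clec4a1 is a C-type lectin with close relatives in the same cluster, and Ly86 is the partner protein of the Toll-like receptor relative Cd180. Evi2b had an FPKM of 0.00983 and 0.0318 in SKF+JQ1, 0.229 and 0.144 in JQ1 and 0.543 and 0.339 in SKF cultures, against 2.29 and 1.43 in DMSO cultures. Ptprc had an FPKM of 0 in both SKF+JQ1 libraries, 0.0630 and 0 in JQ1 and 0.330 and 0.138 in SKF cultures, against 0.595 and 0.480 in DMSO cultures. Cd53 had an FPKM of 0.0664 and 0.0442 in SKF+JQ1, 0.193 and 0.161 in JQ1 and 1.55 and 1.03 in SKF cultures, against 2.51 and 2.26 in DMSO cultures. Ptprc codes for CD45, a phosphatase of leukocytes, and Cd53 for a tetraspanin of leukocytes. The integrin chains Itgam (the alpha chain known as CD11b) and Itgb2 form a complement receptor. Itgam had an FPKM of 0.0549 and 0.0121 in SKF+JQ1, 0 in both JQ1 libraries and 0.429 and 0.460 in SKF cultures, against 1.26 and 0.965 in DMSO cultures. Itgb2 had an FPKM of 0.0391 and 0 in SKF+JQ1, 0.112 and 0.0679 in JQ1 and 0.571 and 0.502 in SKF cultures, against 1.24 and 1.16 in DMSO cultures. Itgam was listed at 0 in both JQ1 libraries and above 0 in both SKF+JQ1 libraries, and Itgax, which overlaps it on the same strand, stood at 0 to 0.194 FPKM across libraries, so reads of the pair may be shared.

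Among the genes of the lysosome and of secreted products, Cd68 had the highest level. Cd68 is a lysosomal membrane glycoprotein, Ctss the protease cathepsin S, and Laptm5 a lysosomal membrane protein of blood cells. Cd68 had an FPKM of 1.54 and 1.07 in SKF+JQ1, 4.14 and 3.67 in JQ1 and 12.7 and 9.49 in SKF cultures, against 24.3 and 20.8 in DMSO cultures. Ctss had an FPKM of 0.254 and 0.120 in SKF+JQ1, 1.59 and 1.23 in JQ1 and 3.57 and 2.75 in SKF cultures, against 7.65 and 6.04 in DMSO cultures. Laptm5 had an FPKM of 0.119 and 0.0970 in SKF+JQ1, 0.794 and 0.433 in JQ1 and 3.06 and 2.68 in SKF cultures, against 5.77 and 5.30 in DMSO cultures. These 3 genes kept 17.3%, 20.6% and 11.1% of their DMSO level with JQ1. Pld4 is an endolysosomal nuclease and Ccl6 a chemokine. Pld4 had an FPKM of 0 in both SKF+JQ1 libraries, 0.207 and 0.180 in JQ1 and 1.17 and 0.924 in SKF cultures, against 3.20 and 2.86 in DMSO cultures. Ccl6 had an FPKM of 0.119 and 0 in SKF+JQ1, 1.02 and 0.469 in JQ1 and 4.87 and 3.48 in SKF cultures, against 8.32 and 7.90 in DMSO cultures. Ltc4s codes for leukotriene C synthase and was near 0 with SKF alone. Ltc4s had an FPKM of 0 in both SKF+JQ1 libraries, 0 in both JQ1 libraries and 0 and 0.141 in SKF cultures, against 0.993 and 0.956 in DMSO cultures. Its SKF libraries held 0 and 0.141 FPKM, 7.24% of the DMSO mean.

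The transcription factor genes Spi1 and Irf8 kept more of their level with JQ1 than the other members except Coro1a. Spi1 had an FPKM of 0.0504 and 0.0407 in SKF+JQ1, 0.390 and 0.150 in JQ1 and 0.477 and 0.543 in SKF cultures, against 1.12 and 0.836 in DMSO cultures. Irf8 had an FPKM of 0.257 and 0.273 in SKF+JQ1, 0.506 and 0.457 in JQ1 and 0.656 and 0.355 in SKF cultures, against 1.29 and 1.05 in DMSO cultures. Spi1 kept 27.6% and Irf8 41.2% of the DMSO level with JQ1. For Irf8 the JQ1 and SKF libraries overlapped. Of the genes for signalling and the cytoskeleton, Aif1 codes for Iba1, the classic microglial stain, and Lcp1 for an actin bundler. Aif1 had an FPKM of 0 in both SKF+JQ1 libraries, 0.299 and 0 in JQ1 and 0.923 and 0.359 in SKF cultures, against 2.53 and 1.67 in DMSO cultures. Lcp1 had an FPKM of 0.132 and 0.101 in SKF+JQ1, 0.218 and 0.214 in JQ1 and 1.27 and 1.04 in SKF cultures, against 2.94 and 2.33 in DMSO cultures. Vav1 takes part in signalling to the cytoskeleton and Inpp5d codes for an inositol phosphatase that restrains signals from the adaptors. Vav1 had an FPKM of 0 and 0.0238 in SKF+JQ1, 0.128 and 0.115 in JQ1 and 0.253 and 0.310 in SKF cultures, against 0.678 and 0.476 in DMSO cultures. Inpp5d had an FPKM of 0.148 and 0.0664 in SKF+JQ1, 0.244 and 0.140 in JQ1 and 0.965 and 0.832 in SKF cultures, against 1.79 and 1.19 in DMSO cultures. Coro1a, which codes for an actin regulator, stood apart. Coro1a had an FPKM of 6.95 and 7.52 in SKF+JQ1, 6.99 and 6.96 in JQ1 and 12.1 and 13.7 in SKF cultures, against 12.6 and 11.6 in DMSO cultures. Its SKF and DMSO libraries overlapped, and JQ1 left 57.8% of the DMSO level. In experiment 2 Coro1a was also higher in DMSO cultures than in experiment 1, where 30 of the other 31 genes were not, Ltc4s being the exception.

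**Figure D1:**
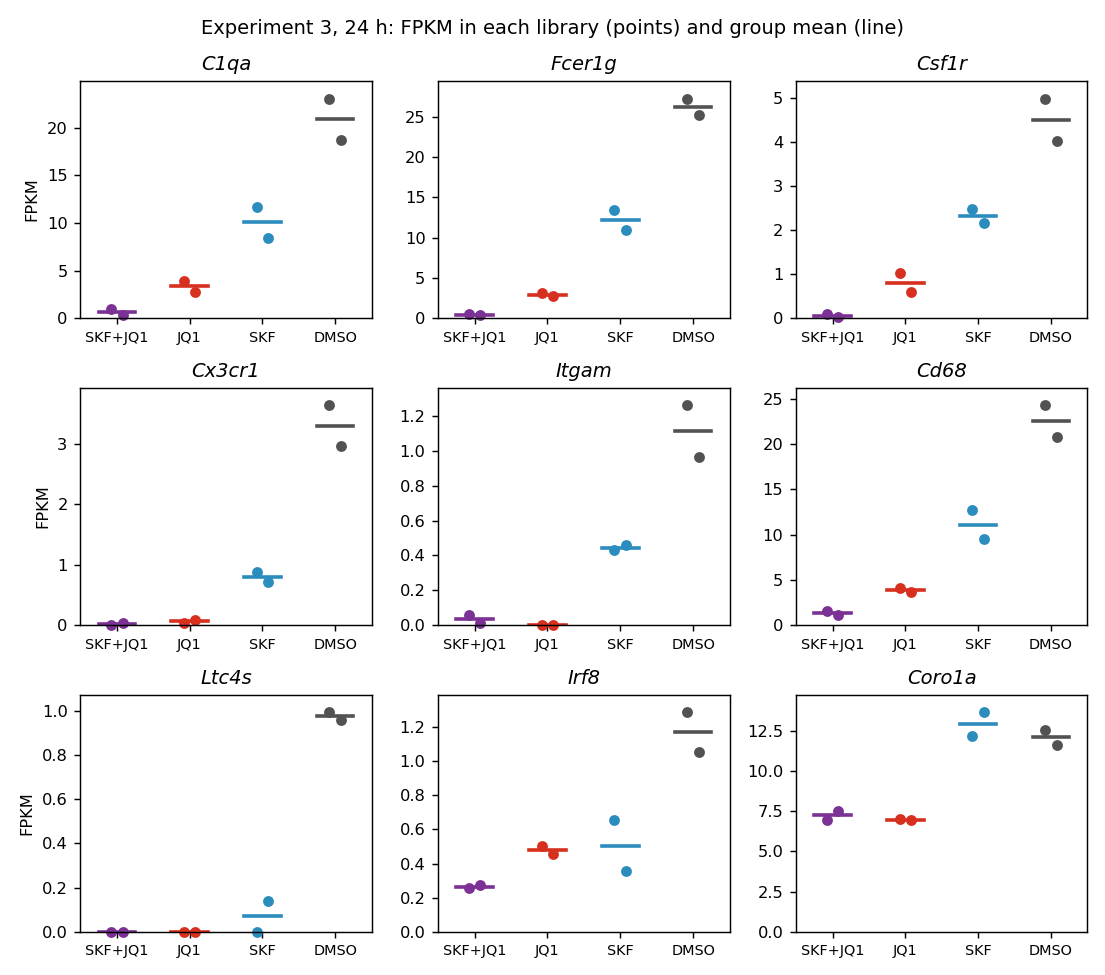
FPKM (y axes, each starting at 0) of 9 of the genes in the 8 libraries of experiment 3, with points for libraries and lines for group means of 2. The SKF+JQ1 and JQ1 libraries lie near 0 for most genes, SKF libraries between them and DMSO, and Coro1a keeps 57.8% of its DMSO mean with JQ1 and 107% with SKF.

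Tests used limma on log2(FPKM + 0.5) over 13999 genes, with Benjamini-Hochberg adjustment over all of them and a threshold of 0.05. All 32 genes passed the filter on low values, so the counts below cover the whole set. On this scale the change of genes near 0 comes out too small, and percentages of raw FPKM are given beside them. JQ1 for 24 h lowered 32 of 32 genes, where 31.9% of all genes tested were called lower and 24.1% higher, and raised 0 of them (0 also at an unadjusted p under 0.05). The median log2 fold change was -2.03, with a range of -3.34 (Fcrl2) to -0.70 (Coro1a), against a median of -0.03 over all genes. The largest adjusted p among the 32 was 0.00272, for Vav1. Fcrl2 fell with a log2 fold change -3.34, SE 0.201, adjusted p = 5.02e-09, Fcer1g with a log2 fold change -2.93, SE 0.125, adjusted p = 4.74e-11, and Cx3cr1 with a log2 fold change -2.74, SE 0.142, adjusted p = 1.89e-10.

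Since many genes were called in this comparison, the size of the fall is given as well. The median gene of the set kept 8.70% of its DMSO FPKM with JQ1, against 93.9% over all genes. Under 25% of the DMSO level were 29 of the 32, against 2.59% of all genes tested, under 10% were 17 of 32, against 0.771% of all genes, and under 5% were 9 of 32, against 0.421%. The 3 genes above 25% were Spi1, Irf8 and Coro1a. Every JQ1 library lay under every DMSO library for 32 of 32 genes, where 47.1% of all genes did so.

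With SKF present, JQ1 for 24 h lowered 31 of 32 genes, where 31.2% of all genes tested were called lower and 24.7% higher. It raised 0 (0 at an unadjusted p under 0.05). The exception was Ltc4s, already at or near 0 in the SKF cultures (log2 fold change -0.18, SE 0.165, adjusted p = 0.375). The median log2 fold change was -1.40, from -3.77 (C1qc) to -0.18, against -0.03 over all genes. The median gene kept 3.99% of its SKF level, against 95.4% over all genes, and 30 of 32 kept under 25%, against 2.53% of all genes. The 2 others were Irf8, at 52.4%, and Coro1a, at 56.1%. Irf8 had an adjusted p of 0.0233, which became 0.384 without SKF replicate 5, 0.0912 and 0.0612 without either SKF+JQ1 library, and 0.0607 with experiment 3 fitted alone. Without SKF replicate 5, Ly86 and Ptprc also missed the threshold (adjusted p = 0.140 and 0.0646), and Vav1 missed it without SKF replicate 6 or SKF+JQ1 replicate 5 (adjusted p = 0.0730 and 0.0637).

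SKF for 24 h lowered 24 of 32 genes, where 0.879% of all genes tested were called lower and 0.614% higher, and raised 0 (0 at an unadjusted p under 0.05). Over all genes 123 were called lower. The 8 not called were C1qa, Tmem119, Ly86, Ptprc, Spi1, Coro1a, Vav1 and Inpp5d. All but Coro1a of these 8 had SKF means under the DMSO means, at 43.5 to 60.2% of them. The median log2 fold change was -0.94, from -1.85 (Fcgr3a) to 0.09 (Coro1a), against -0.01 over all genes. The falls were of similar depth: 21 of 32 genes lay at 40 to 60% of the DMSO level, a range that held 1.06% of all genes tested.

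Under 40% of the DMSO level with SKF lay 9 genes. Ltc4s, Fcgr3a, Evi2b and Cx3cr1 were under 25%, at 7.24%, 11.4%, 23.7% and 23.9%, where 0.129% of all genes tested were. Aif1, Pld4, Clec4a1, Trem2 and Itgam followed at 30.6%, 34.5%, 34.96%, 39.2% and 39.9%. Fcgr3a fell with a log2 fold change -1.85, SE 0.134, adjusted p = 6.62e-07, Cx3cr1 with a log2 fold change -1.56, SE 0.142, adjusted p = 8.98e-06, and Pld4 with a log2 fold change -1.20, SE 0.119, adjusted p = 2.43e-05. Every SKF library lay under every DMSO library for 31 of 32 genes, where 19.5% of all genes did so. The count of calls rests on the shared estimate of spread and on 2 libraries a group. It was 10 of 32 without SKF replicate 6, 11 of 32 without DMSO replicate 5, and 14 of 32 with experiment 3 fitted alone. Replicate 5 had the higher FPKM for 31 of 32 genes in the DMSO cultures and for 27 of 32 in the SKF cultures, and the summed astrocyte genes were also higher in replicate 5, 548 and 519 FPKM in the SKF and 647 and 542 in the DMSO libraries. The part of such library differences in the result was not tested.

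**Figure D2:**
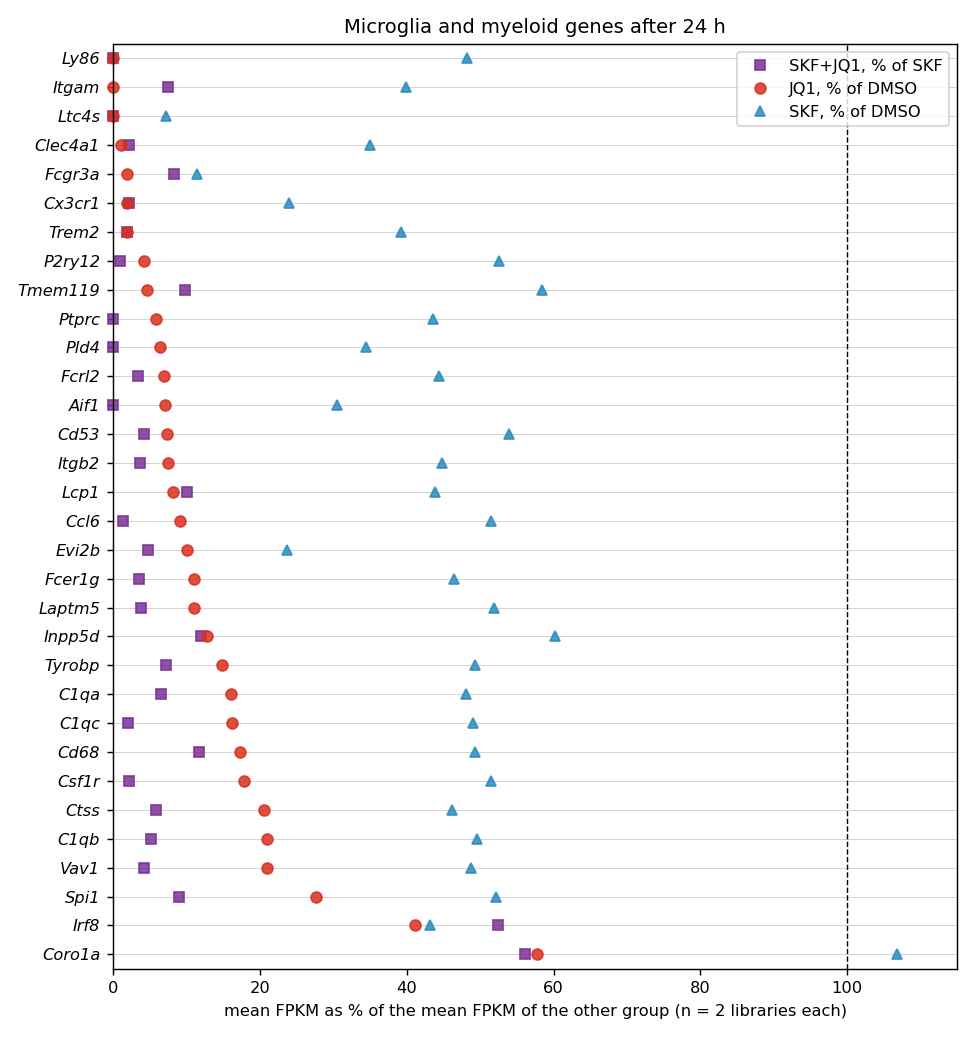
Mean FPKM in experiment 3 as a percentage of the mean of the other group (x axis, raw FPKM, 2 libraries a group), 1 row per gene, ordered by the JQ1 value: squares for SKF+JQ1 against SKF, circles for JQ1 against DMSO, triangles for SKF against DMSO. Most triangles lie at 40 to 60%, most circles and squares under 25%, and Coro1a is at 56.1%, 57.8% and 107%; for Ly86 and Ltc4s the square and the circle coincide at 0.

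Whether SKF and JQ1 act differently together was asked as the SKF effect with JQ1 minus the SKF effect without it. By limma 4 of 32 genes were called higher, where 0.0286% of all genes were, and 0 were called lower, where 0.0143% were. At an unadjusted p under 0.05, 13 were higher and 5 lower. The 4 called were Fcgr3a (log2 fold change 1.79, SE 0.189, adjusted p = 5.41e-04), Cx3cr1 (log2 fold change 1.43, SE 0.200, adjusted p = 0.00830), Clec4a1 (log2 fold change 1.17, SE 0.200, adjusted p = 0.0489) and Ltc4s (log2 fold change 1.38, SE 0.233, adjusted p = 0.0489). All 4 were under 0.1 FPKM in every 24 h library with JQ1, alone or with SKF. With a pseudocount of 0.1 Fcgr3a and Ltc4s were called higher and C1qb and Fcer1g lower, and with voom on estimated reads none was called, and the value for Cx3cr1 turned to -0.20. Clec4a1 and Ltc4s lost the call without most single libraries, and Cx3cr1 lost it without DMSO replicate 5, SKF replicate 6 or SKF+JQ1 replicate 6 (adjusted p = 0.0592, 0.0620 and 0.0531).

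For the 12 genes whose JQ1 mean was at least 0.5 FPKM, where a ratio can be read, the SKF+JQ1 mean was 6.30 to 104% of the JQ1 mean, and the SKF mean 44.4 to 107% of the DMSO mean. In each of the 12 the percentage was lower with JQ1 than without. C1qa, for one, stood at 0.656 FPKM in SKF+JQ1 against 3.37 FPKM in JQ1 cultures, and at 10.04 FPKM in SKF against 20.9 FPKM in DMSO cultures. Coro1a differed little, at 104% with JQ1 against 107% without. The JQ1 mean that set the cut is also the denominator of the percentage with JQ1, so the cut itself favours low values. Below the cut genes went both ways: Irf8 stood at 55.0% with JQ1 against 43.2% without, and Spi1 at 16.9% against 52.2%. The sign of the fitted difference depended on the scale over the whole set: it was above 0 in 20 of 32 genes with a pseudocount of 0.5, in 17 with 0.1 and in 9 with voom.

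After 60 min no gene of the set passed the limma threshold in any comparison. JQ1 lowered 0 and raised 0 of 32 genes by limma, where 2.7% of all genes were called lower and 1.78% higher. At an unadjusted p under 0.05 were 2 genes, both lower, and voom called 0. Spi1 had an FPKM of 0.535 and 0.556 in JQ1 against 1.02 and 1.05 in DMSO cultures (log2 fold change -0.54, SE 0.172, adjusted p = 0.0954), and Ltc4s had 0.755 and 0.607 against 0.920 and 1.18 (log2 fold change -0.38, SE 0.165, adjusted p = 0.288). For both the libraries did not overlap, as for 12 of 32 genes below and 1 above, where 26.2% of all genes lay below and 11.5% above. The median gene stood at 90.4% of DMSO, against 98.5% over all genes. Over the 32 genes the 95% intervals of the log2 fold change reached no lower than -0.91 (Spi1) and no higher than 0.59 (C1qa). The summed FPKM was 194 and 204 in JQ1 and 219.7 and 196 in DMSO cultures. JQ1 with SKF for 60 min lowered 0 and raised 0 against SKF, where 3.88% were called lower and 2.69% higher. There Irf8 alone had an unadjusted p under 0.05, with 0.861 and 0.937 FPKM in SKF+JQ1 against 0.628 and 0.588 in SKF cultures (log2 fold change 0.34, SE 0.129, adjusted p = 0.152), and voom called 0.

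The JQ1 effect at 24 h minus that at 60 min, which sets experiment 3 against experiment 1, was called below 0 in 30 of 32 genes, where 21.5% of all genes were, and above 0 in none (0 at an unadjusted p under 0.05), where 14.4% were. Its median was -1.997 on the log2 scale. The 2 genes without a call were Spi1 (log2 fold change -0.39, SE 0.243, adjusted p = 0.230) and Vav1 (log2 fold change -0.62, SE 0.274, adjusted p = 0.0904). For Csf1r the JQ1 libraries held 1.02 and 0.585 FPKM at 24 h, with DMSO at 4.98 and 4.02, and 4.35 and 3.82 FPKM at 60 min, with DMSO at 4.65 in both. For C1qa they held 3.94 and 2.80 FPKM at 24 h, with DMSO at 23.03 and 18.7, and 20.7 and 23.03 FPKM at 60 min, with DMSO at 24.3 and 19.2. Time and experiment cannot be told apart in this comparison, though the DMSO levels of the 2 experiments were close, at a median of 99.7% (88.6 to 132%).

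SKF for 60 min lowered 0 and raised 0 of 32 genes in experiment 1, where 0.136% of all genes were called lower and 1.55% higher, and 0 and 0 in experiment 2, where 0.35% and 2.01% were. In experiment 1 Irf8, Ltc4s and Cx3cr1 had an unadjusted p under 0.05. Irf8 had 0.628 and 0.588 FPKM in SKF against 1.16 and 0.988 in DMSO cultures (log2 fold change -0.49, SE 0.129, adjusted p = 0.0735). Its call came with voom (adjusted p = 0.0395), and in limma without replicate 5 or 6 of the 24 h SKF cultures (adjusted p = 0.0233 and 0.0231), where its fold change stayed at -0.49 and its SE was 0.108 and 0.107. Without one or other SKF or DMSO library of experiment 1 it was 0.164 to 0.365. In experiment 2 Irf8 had 0.455 and 0.312 FPKM in SKF against 0.688 and 0.685 in DMSO cultures (log2 fold change -0.40, SE 0.129, adjusted p = 0.158). SKF libraries lay under DMSO libraries for Irf8 in both 60 min experiments and at 24 h. Ltc4s had 0.845 and 0.453 FPKM in SKF against 0.920 and 1.18 in DMSO cultures in experiment 1 (log2 fold change -0.44, SE 0.165, adjusted p = 0.389), and 0.587 and 0.777 against 0.968 and 1.38 in experiment 2 (log2 fold change -0.46, SE 0.165, adjusted p = 0.220). Cx3cr1 had 2.20 and 2.04 FPKM in SKF against 3.10 and 2.71 in DMSO cultures in experiment 1 (log2 fold change -0.36, SE 0.142, adjusted p = 0.446), and its libraries overlapped in experiment 2. In experiment 2 Evi2b (log2 fold change -0.47, SE 0.179, adjusted p = 0.267) and Itgb2 (log2 fold change 0.38, SE 0.117, adjusted p = 0.129) also had an unadjusted p under 0.05, and voom called 0.

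Library differences were wide in the SKF cultures of experiment 1. Replicate 5 was higher than replicate 6 for 31 of 32 genes, and the summed FPKM was 236 and 162, against 219.7 and 196 in DMSO cultures. The summed astrocyte genes went the same way, 602 and 462 FPKM in SKF and 519 and 541 in DMSO libraries, and their part in the result was not tested.

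iBD2 for 60 min lowered 0 and raised 0 of 32 genes, where 0% of all genes were called lower and 0.164% higher. Tmem119 alone had an unadjusted p under 0.05 (log2 fold change -0.29, SE 0.125, adjusted p = 0.748), and voom called 0. iBD2 with SKF, with its single library, lowered 0 and raised 0 against SKF, where 0.00714% and 0.0143% of all genes were called, and no member had an unadjusted p under 0.05 or a call by voom. The summed FPKM was 135 in SKF+iBD2, 123 and 119 in iBD2 and 123 and 126 in SKF cultures, against 124 and 113 in DMSO cultures. The JQ1 effect minus the iBD2 effect at 60 min was called in 0 of 32 genes in either direction (0 by voom too, and 0 at an unadjusted p under 0.05), where 0.421% of all genes were lower and 0.529% higher. The 2 inhibitors were tested in separate experiments, and the labels give no doses. iBD2 for 24 h is not analysed here.

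**Figure D3:**
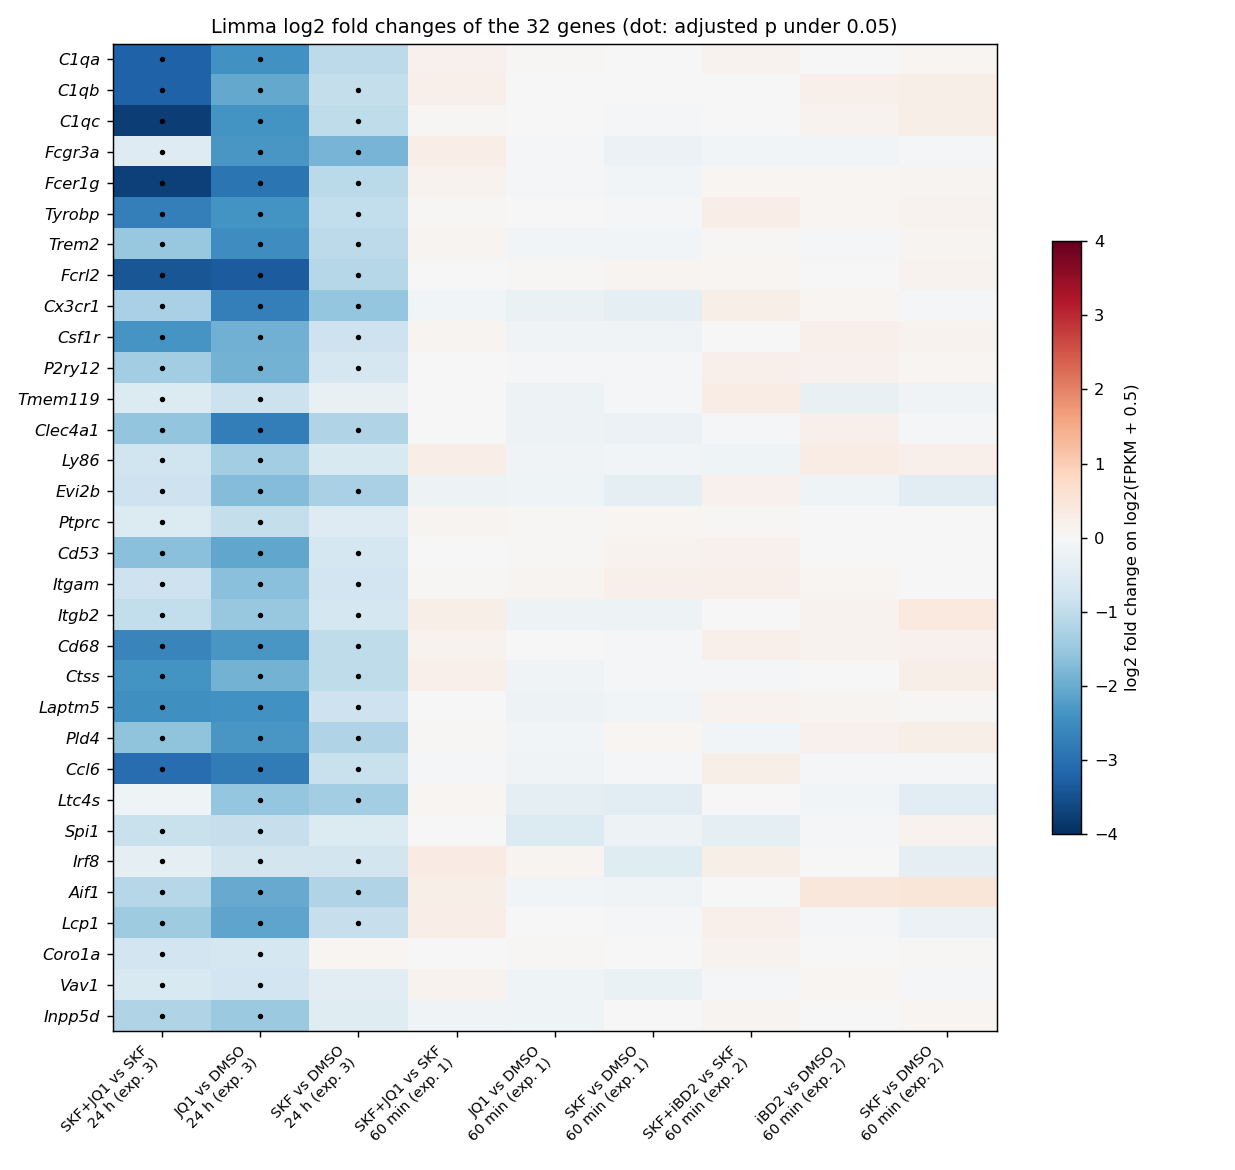
Limma log2 fold changes on log2(FPKM + 0.5) (colour, blue for lower and red for higher in the treated cultures) of the 32 genes in 9 comparisons, with a dot where the adjusted p was under 0.05. Dots are confined to the 3 columns of 24 h, with 31, 32 and 24 genes, and the 6 columns of 60 min hold none.

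Vehicle cultures differed between experiments. The DMSO level in experiment 2 was a median of 53.6% of that in experiment 1, with 30 of 32 genes lower, from 29.9% (Ccl6) to 139% (Coro1a). In the summed astrocyte genes, experiment 2 held 229 and 221 FPKM and experiment 1 519 and 541. In the summed neuron genes, experiment 2 held 3255 and 3189.9 FPKM and experiment 1 3120.2 and 3068. The reads behind the set, estimated from coverage, were 7205 to 11814 per library in experiment 2 and 18305 to 31252 in experiment 1. At 24 h they were 1486 to 1586 in SKF+JQ1, 3111 to 3368 in JQ1 and 10415 to 12237 in SKF libraries, against 24151 to 35734 in DMSO libraries.

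In a longer list of 96 other microglia and myeloid genes, most of those tested also fell with JQ1 at 24 h. Of its 67 tested genes JQ1 lowered 64 and raised 0, where 31.9% of all genes were called lower. The median log2 fold change was -1.16, and 43 kept under 25% of the DMSO level, against 2.59% of all genes. JQ1 with SKF lowered 56 and raised 1 against SKF, where 31.2% were called lower, with a median of -0.75. SKF lowered 21 and raised 0, where 0.879% were called lower, with a median of -0.51, and voom called 32 lower. The summed FPKM of this list fell less than that of the 32 genes. It stood at 35.5% of the DMSO level in JQ1, 72.7% in SKF, and 50.9% of the SKF level in SKF+JQ1 cultures. Its SKF+JQ1 libraries, at 88.5 and 70.1 FPKM, overlapped the JQ1 libraries, at 84.3 and 68.2. Lpl, which codes for lipoprotein lipase, had 3.16 and 3.22 FPKM in SKF+JQ1, 3.47 and 3.91 in JQ1 and 12.1 and 10.9 in SKF cultures, against 14.7 and 14.6 in DMSO cultures. Cd4, which rat macrophages carry on their surface, had 0.0867 and 0.0374 FPKM in SKF+JQ1, 0.591 and 0.405 in JQ1 and 2.55 and 2.34 in SKF cultures, against 5.99 and 5.12 in DMSO cultures. Rac2, a small GTPase of leukocytes, kept 39.8% of the DMSO level with SKF. Skap2 and Arhgdib, which take part in leukocyte signalling, kept 17.0% and 31.7% of it with JQ1. With SKF Skap2 had 4.24 and 4.58 FPKM against 4.91 and 4.34 in DMSO cultures, so its libraries overlapped. Arhgdib had 8.31 and 9.05 FPKM with SKF against 9.76 and 9.37 in DMSO cultures. In DMSO cultures Arhgdib was higher in experiment 2, at 13.9 and 13.2 FPKM, than in experiment 1, at 10.3 and 8.75.

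At 60 min this list gave the few calls that the 32 genes did not. SKF in experiment 1 lowered 3 of its 67 tested genes, where 0.136% of all genes were called lower. C3ar1, the receptor for the complement fragment C3a, had 0.850 and 0.708 FPKM in SKF against 2.13 and 1.97 in DMSO cultures (log2 fold change -0.99, SE 0.122, adjusted p = 6.96e-05). Gpr34, a lysophospholipid receptor, had 0.956 and 0.705 against 1.57 and 1.49 FPKM (log2 fold change -0.60, SE 0.134, adjusted p = 0.0220), and Cd33, a sialic acid receptor, 1.21 and 0.814 against 1.92 and 1.79 FPKM (log2 fold change -0.64, SE 0.157, adjusted p = 0.0489). In experiment 2, where SKF called 0 of the 67 (5 lower and 2 higher at an unadjusted p under 0.05, 0 by voom), C3ar1 had 0.448 and 0.632 FPKM in SKF against 0.815 and 0.874 in DMSO cultures. JQ1 for 60 min lowered 2 of the 67, a share near the 2.7% of all genes called lower, and these were C3ar1 (log2 fold change -0.53, SE 0.122, adjusted p = 0.0158) and Sall1 (log2 fold change -0.33, SE 0.0752, adjusted p = 0.0136), a transcription factor of microglia and of neural progenitors. At 24 h Sall1 had 4.79 and 4.71 FPKM in JQ1 against 5.26 and 4.43 in DMSO cultures, so its libraries overlapped. In SKF+JQ1 cultures Sall1 had 5.50 and 4.92 FPKM, above the 4.22 and 4.21 of SKF cultures. C3ar1 and Gpr34 also led the list by p in SKF for 24 h, at 39.1% and 33.4% of the DMSO level. iBD2 called 0 of the 67, alone or with SKF (0 lower at an unadjusted p under 0.05, 2 and 1 higher, 0 by voom). JQ1 with SKF called 0 against SKF (4 lower at an unadjusted p under 0.05, 2 by voom).

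Genes of macrophages at the borders of the brain also fell with JQ1 at 24 h. All 4 tested of 9 were lowered by JQ1 and by JQ1 with SKF, where 31.9% and 31.2% of all genes were called lower. SKF for 24 h lowered 2 of 4, Folr2 and Stab1, where 0.879% of all genes were called lower. Mrc1 and Pf4 kept 72.0% and 75.1% of the DMSO level with SKF, without a call. Folr2, a folate receptor, had 0.0261 and 0 FPKM in SKF+JQ1, 0.0353 and 0.372 in JQ1 and 1.46 and 1.23 in SKF cultures, against 4.05 and 3.29 in DMSO cultures. Mrc1, the mannose receptor, had 0.0531 and 0.00909, 0.0853 and 0.0473 and 0.623 and 0.430 FPKM in SKF+JQ1, JQ1 and SKF cultures, against 0.827 and 0.637 in DMSO cultures.

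A list of ligands and related signals of microglia had a median log2 fold change of -0.55 with JQ1 for 24 h. Over all genes the median was -0.03. Which cells made these RNAs was not tested. Of 11 such genes 10 were tested, and JQ1 lowered 8 and raised 1, where 31.9% of all genes were called lower and 24.1% higher. Il34, the neuronal ligand of Csf1r, had 0.197 and 0.233 FPKM in SKF+JQ1, 0.247 and 0.221 in JQ1 and 1.47 and 1.27 in SKF cultures, against 1.58 and 1.66 in DMSO cultures. JQ1 left 14.4% of it (log2 fold change -1.51, SE 0.143, adjusted p = 1.71e-07), and SKF 84.6% (log2 fold change -0.18, SE 0.143, adjusted p = 0.780). Csf1, the other ligand, had 3.65 and 2.55, 3.44 and 2.64 and 4.004 and 3.69 FPKM in SKF+JQ1, JQ1 and SKF cultures, against 5.67 and 4.36 in DMSO cultures, and fell to 60.6% with JQ1 (adjusted p = 0.00209). At 60 min JQ1, SKF in either experiment and iBD2 each called 0 of the 10 by limma (voom 0, and at most 1 at an unadjusted p under 0.05).

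Tgfb1 and Tgfb2, growth factors that maintain microglia, kept 41.9% and 45.7% of the DMSO level with JQ1. Cx3cl1, the ligand of Cx3cr1, kept 74.8%, Cd200, which restrains microglia, 79.7%, the complement inhibitor gene Serping1 67.7%, and complement C3 62.3%. Cd47, a signal against engulfment, rose to 119% (log2 fold change 0.31, SE 0.0647, adjusted p = 6.72e-04), and Icam1 was at 92.6% without a call. With SKF 1 of the 10 was called, C3, at 58.9% of DMSO (log2 fold change -0.74, SE 0.138, adjusted p = 0.00815), where 0.879% of all genes were called lower. With JQ1 on top of SKF 5 were lower and 1, Cd47, higher, where 31.2% and 24.7% of all genes were.

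Lists for the other cells of these cultures were counted in the same way at 24 h, where JQ1 lowered 31.9% and raised 24.1% of all genes tested. JQ1 lowered 6 of 13 tested astrocyte genes and raised 0, lowered 4 and raised 3 of 10 oligodendrocyte lineage genes, lowered 5 and raised 3 of 15 neuron genes, and lowered 1 of 3 fibroblast and mural genes. Median log2 fold changes of these lists were -0.28, -0.13, -0.07 and -0.53. Aqp4, the astrocyte water channel, fell most among the astrocyte genes by p, to 23.6% of the DMSO level (log2 fold change -1.99, SE 0.182, adjusted p = 6.49e-07). JQ1 with SKF lowered 4, 2, 7 and 0 genes of the 4 lists and raised 4, 3, 1 and 1, where 31.2% of all genes were called lower and 24.7% higher. SKF for 24 h called 0 genes of any of the 4 by limma and by voom (1, 0, 1 and 1 lower at an unadjusted p under 0.05, and 1 neuron gene higher). Over all genes limma called 0.879% lower and 0.614% higher, so 0 calls in lists this short lie near that share. Among the 32 myeloid genes SKF lowered 24. No gene of the lymphoid and granulocyte list was tested. Beside 6.16 and 3.61 FPKM in SKF+JQ1, 29.1 and 21.98 in JQ1 and 102 and 76.4 in SKF cultures, against 209 and 176 in DMSO cultures, for the set without Coro1a (left out after its values were seen), the neuron genes summed to 2547 and 2808, 2725 and 2870.0 and 3051 and 3111 FPKM, against 3009.9 and 3207 FPKM in DMSO cultures. The summed astrocyte genes stood at 103% of the SKF level in SKF+JQ1, 79.9% of the DMSO level in JQ1 and 89.8% of it in SKF cultures. The summed fibroblast and mural genes stood at 127% of the SKF level in SKF+JQ1, 55.6% of the DMSO level in JQ1 and 65.2% of it in SKF cultures, on a DMSO mean of 5.83 FPKM. The 3 tested ones, Col1a1, Col3a1 and Acta2, were at 39.3%, 49.8% and 66.3% with JQ1. The part of other cells in the result was not tested.

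**Figure D4:**
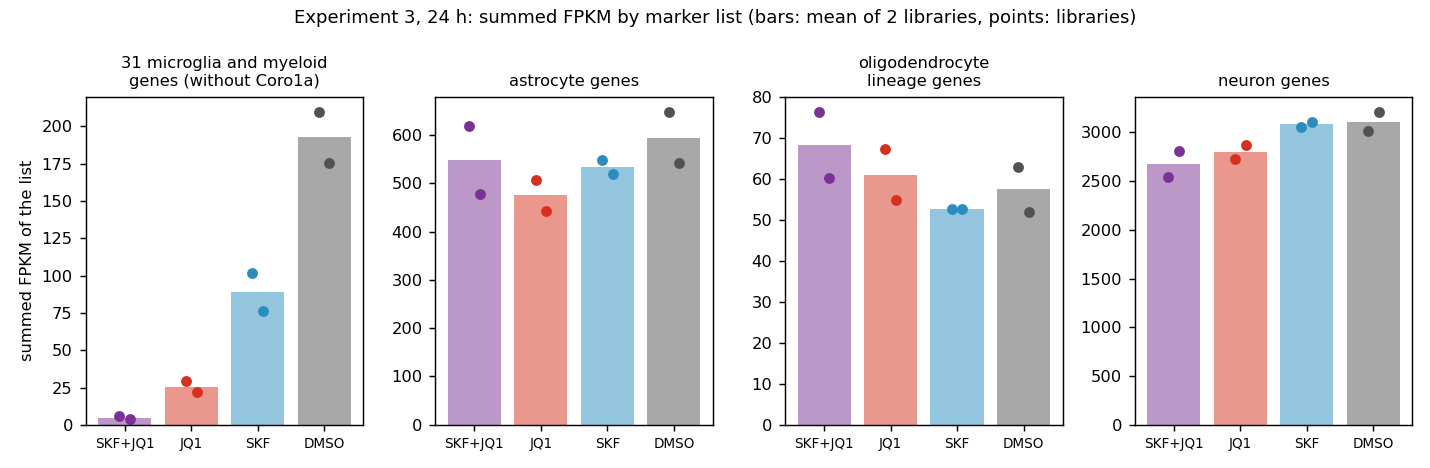
Summed FPKM (y axes, each starting at 0) in experiment 3 of the set without Coro1a and of 3 lists for other brain cells, with bars for means of 2 libraries and points for libraries. The myeloid sum stands at 5.48% of the SKF level in SKF+JQ1, 13.3% of the DMSO level in JQ1 and 46.3% of it in SKF cultures (11.9%, 15.9% and 49.9% with Coro1a included). The neuron sum stands at 86.9%, 90.0% and 99.1% in the same comparisons, the astrocyte sum at 103%, 79.9% and 89.8%, and the oligodendrocyte lineage sum at 129.8%, 106% and 91.5%.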

How the data were processed

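RNA of striatal cultures was depleted of ribosomal RNA and sequenced as stranded libraries (per the labels' protocols). The submitters' processing notes name Trim Galore, FastQC, STAR, StringTie and DESeq2 and the build Rnor_6.0. The authors deposited 1 StringTie table per library with the FPKM and the coverage (mean read depth) of each transcript. Here FPKM was summed over the transcripts of each of 32883 gene identifiers.

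Each library's FPKM was divided by a size factor (0.956 to 1.07) and tested as log2(FPKM + 0.5) with limma 3.58.1 in R 4.3.3 (trended, robust), 1 fit with 12 group means over all 23 libraries (residual df 11), on 13999 genes with at least 0.5 FPKM in at least 2 libraries and a transcript of at least 200 nt. FPKM are not counts, so no count test was the main one. Reads estimated as coverage times length over 101 bases went into voom as an alternative. FPKM in the text are as deposited. The size of a library, as aligned sequence, ranged from 4.36 to 14.9 gigabases. Bases in transcripts made up 79.5 to 81.3% of this. The mitochondrial share of bases was 6.57 to 13.3%. The limma step was checked on simulated data, with noise drawn on the log2 scale of the fit. Changes were planted only in genes above a floor of DMSO FPKM. The check thus does not cover genes that start low or fall to 0.

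The 32 genes and all lists were chosen with earlier results of these data known. Any of the 32 may be named, of each list up to 4 genes per comparison by smallest p and all ligand genes, and other genes only where they overlap one of the 32. List symbols absent from the files were not used. Promoters were matched by symbol, with 21 of 32 found. Alternatives were FPKM as deposited in the test, pseudocounts of 0.1 and 1, no filter, a replicate block, each experiment fitted alone, voom, and each library left out. Figures were drawn with matplotlib 3.10.9.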

Additional observations from a re-analysis of the deposited data

Results flagged for a closer look

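The effect of SKF at 24 h differed with and without JQ1 in 4 genes by limma's interaction term. The SKF effect with JQ1 minus that without it was 1.79 for Fcgr3a, 1.43 for Cx3cr1, 1.17 for Clec4a1 and 1.38 for Ltc4s on the log2(FPKM + 0.5) scale. All 4 were near 0 in every library with JQ1, and voom on estimated reads called none of them.

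The JQ1 effect at 24 h minus the JQ1 effect at 60 min was called below 0 in 30 of the 32 genes, and experiment and time cannot be told apart in it. Among complement, Fc receptor and adaptor genes it was -2.46 for C1qa, -2.09 for C1qb, -2.37 for C1qc, -2.26 for Fcgr3a, -2.89 for Fcer1g, -2.38 for Tyrobp, -2.36 for Trem2 and -3.39 for Fcrl2. Among receptors and membrane proteins it was -2.49 for Cx3cr1, -1.77 for Csf1r, -1.84 for P2ry12, -0.67 for Tmem119, -2.54 for Clec4a1, -1.27 for Ly86, -1.59 for Evi2b, -1.002 for Ptprc, -2.11 for Cd53, -1.78 for Itgam and -1.33 for Itgb2. Among lysosomal and secreted products it was -2.34 for Cd68, -1.77 for Ctss, -2.22 for Laptm5, -2.23 for Pld4, -2.66 for Ccl6 and -1.18 for Ltc4s. For the transcription factor Irf8 it was -0.85, and among signalling and cytoskeletal genes -1.91 for Aif1, -2.10 for Lcp1, -0.74 for Coro1a and -1.34 for Inpp5d. Groups of 2 libraries are too small for a check of single libraries against the rest of their group.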

How the results depend on the processing

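JQ1 for 24 h lowered 32 of the 32 genes under every alternative run. JQ1 with SKF for 24 h lowered 31, and fewer without some single libraries. The JQ1 effect at 24 h minus that at 60 min was called below 0 in 30, and in 31 with voom. SKF for 24 h lowered 24, fewer without some single libraries, and 14 with experiment 3 fitted alone (all genes 52 lower, 34 higher). SKF for 60 min in experiment 1 lowered 0 to 1 without single libraries and 1 (Irf8) with voom. The SKF by JQ1 term is the least stable. Its calls among the 32 were 2 lower and 2 higher with a pseudocount of 0.1 (all genes 5 and 2), 2 higher without a filter (all genes 13 and 12), 1 lower and 2 higher with the replicate block (all genes 2 higher), 0 higher with voom (all genes 1 higher), and 1 higher with the experiment alone (all genes 0 and 1). Without single libraries they were 0 to 2 lower and 1 to 4 higher, and 0 to 4 and 1 to 4 over all genes. For Cx3cr1 the term reversed to -0.20 with voom. The causes were not tested.

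Over all genes, other counts moved as follows. With FPKM as deposited, iBD2 had 9 higher (against 23) and JQ1 minus iBD2 36 lower (against 59). Without a filter, SKF for 60 min in experiment 1 had 34 lower (against 19), iBD2 6 lower, and iBD2 with SKF 12 lower and 187 higher. With voom, iBD2 had 1 lower and 3 higher, iBD2 with SKF 2 lower, and SKF in experiment 2 28 lower (against 49). With each experiment alone, JQ1 for 60 min had 224 lower (against 378), SKF in experiment 1 6 lower, iBD2 1 lower, and iBD2 with SKF 10 higher. Without single libraries, the counts lower and higher were 35 to 141 and 26 to 94 for SKF at 24 h, 182 to 396 and 147 to 297 for JQ1, 275 to 585 and 183 to 443 for JQ1 with SKF, 6 to 24 and 153 to 218 for SKF in experiment 1, 0 to 1 and 4 to 27 for iBD2, 1 to 2 and 2 to 5 for iBD2 with SKF, 23 to 55 and 181 to 299 for SKF in experiment 2, and 19 to 63 and 47 to 84 for JQ1 minus iBD2.

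Replicate numbers are shared between groups, but the labels do not say what a number marks, and deviations of same-numbered libraries had correlations from -0.27 to 0.37. With the replicate block SKF for 24 h lowered 25 of the 32, and iBD2 had 1 gene lower over all genes. Where 2 groups of 2 correlated under -0.1, numbers were crossed, chosen after seeing the data: SKF for 24 h then lowered 23 of the 32, JQ1 for 60 min 1, and SKF for 60 min in experiment 2 0. With 2 libraries a group and no depth in FPKM, changes of genes near 0 are not measured well.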
